A study of Mus musculus with 6 samples.

Results

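The genes described here are 10 markers of the endothelial cells that line the vessels of the liver, read in RNA of the whole liver after NASH diet feeding. They were taken by gene symbol, as known markers, from the table of normalised read counts. The table holds all 10 among its 17460 gene symbols. There are 5 sinusoidal markers (Stab1, Stab2, Lyve1, Clec4g and Fcgr2b) and 5 vascular or capillarized markers (Cd34, Plvap, Vwf, Pecam1 and Cdh5). All 10 passed the filter on low values and belong to the 17297 genes tested.

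The livers came from C57BL/6 mice at 9 months of age, 3 labelled control and 3 labelled LKO (liver-specific knockout of the long noncoding RNA Blnc1), all on the NASH diet for 24 weeks. No liver from mice on a standard diet was sequenced, so every value below belongs to a liver on this diet. In the study's methods, Blnc1 LKO mice are Cas9 transgenic mice given an adenovirus that carries a pair of guide RNAs against Blnc1. For its high-fat diet experiment the study describes the control mice as Cas9 transgenic mice given an adenovirus with GFP, whereas the labels of the control mice sequenced here name neither Cas9 nor a virus. The study regards nonparenchymal cells, among which endothelial cells are counted, as poorly reached by this vector. The loss of Blnc1 was not analysed here. The labels do not say how the mice were housed or processed, and p-values measure the spread between these 6 livers.

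Liver sinusoidal endothelial cells are pierced by open pores, lack a continuous basement membrane, and clear macromolecules from the blood through scavenger and lectin receptors. Capillarization is the name for their shift toward an ordinary capillary wall during chronic liver injury, in which pores and scavenger receptors are lost and markers of continuous vessels, such as CD34, appear. RNA of the whole liver mixes all its cells, so fewer endothelial cells and less RNA per endothelial cell cannot be told apart in these values.

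Stab1 and Stab2 encode stabilin-1 and stabilin-2, paralogous scavenger receptors of the sinusoid. Their promoters are shown because the difference between these related genes separated the groups, a choice made after the values were seen. Stab2 on its own overlapped between the groups. Each sequence runs 5′ to 3′ on the strand of its gene, from 250 bases before the RefSeq start of the gene to 50 after it (GRCm38.p6). For Stab2 this start lies inside the GENCODE span given below. Capitals mark AGGAA or its reverse complement TTCCT, the core letters bound by ETS factors such as ERG. The Stab1 window is chr14:31168592-31168891 on the − strand and the Stab2 window is chr10:87007893-87008192 on the − strand.

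Stab1: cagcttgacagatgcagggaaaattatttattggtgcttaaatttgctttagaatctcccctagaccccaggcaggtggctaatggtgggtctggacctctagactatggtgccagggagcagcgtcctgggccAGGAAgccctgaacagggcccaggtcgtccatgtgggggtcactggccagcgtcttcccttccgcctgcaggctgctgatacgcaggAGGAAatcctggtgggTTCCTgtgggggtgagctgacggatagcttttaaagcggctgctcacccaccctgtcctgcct

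Stab2: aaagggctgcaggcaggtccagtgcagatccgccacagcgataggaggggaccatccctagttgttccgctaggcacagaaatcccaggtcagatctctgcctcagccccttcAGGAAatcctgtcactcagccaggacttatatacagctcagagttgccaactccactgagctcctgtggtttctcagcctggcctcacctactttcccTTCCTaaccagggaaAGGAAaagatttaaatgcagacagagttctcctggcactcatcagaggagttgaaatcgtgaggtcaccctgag

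In GENCODE M21 (GRCm38), Stab1 spans chr14:31139013-31168641 and Stab2 chr10:86841198-87008025. The other sinusoidal genes are Lyve1 at chr7:110850607-110863239, Clec4g at chr8:3707064-3720651 and Fcgr2b at chr1:170958617-170976547, and all 5 sinusoidal genes are on the − strand. Plvap (chr8:71497765-71511752) and Pecam1 (chr11:106654217-106750628) are on the − strand, and Cd34 (chr1:194938819-194961279), Vwf (chr6:125546774-125686679) and Cdh5 (chr8:104101625-104144511) on the + strand. All 10 are protein-coding.

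The promoters of Stab1 and Stab2 each held 3 matches, and at least 1 match is found in 66.7% of 32851 promoters of this length. GATAA, a motif bound by GATA factors such as GATA4, was in neither of them on either strand, and it was in 25.4% of all promoters. Promoters were matched for 5 of the 10 markers. The promoter of Clec4g held 4 matches to AGGAA, that of Cd34 held 3 and that of Fcgr2b held 1, and Cd34 alone among the 5 held GATAA.

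Total reads on the listed genes ranged from 65384969 to 89350181 per liver, and the markers had between 674 and 8222 reads each. Their levels were compared in control livers as RPKM, which are reads scaled to the exon length of the gene and to the total reads of the liver. Plvap was highest at an RPKM of 51.7 ± 1.14 (SD, n = 3), followed by Clec4g at 22.4 ± 1.03. Lyve1, Cdh5, Fcgr2b and Stab2 followed with means between 9.67 and 11.1, and in this order each overlapped its neighbour in the control livers. Stab1 was next at 7.73 ± 0.335, then Pecam1 at 6.33 ± 0.173 and Cd34 at 1.61 ± 0.233, and Vwf was lowest at 1.06 ± 0.0931 (SD, n = 3 each), with no overlap between these 4 genes or with those above. Exon lengths were those of GENCODE M21, which may not be the annotation the authors counted on.

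None of the 10 markers passed an adjusted p of 0.05 in limma, against 0.00578% of all genes tested (1 gene). edgeR and DESeq2 on the recovered reads called none of them either. At an unadjusted p under 0.05 there were 5 markers in limma (Stab1, Lyve1, Plvap, Pecam1 and Cdh5), and also 5 each in edgeR and DESeq2. Single livers bore on this count, which was 1 without control replicate 3 and 2 without control replicate 1, and it was 3 when livers were scaled by total reads. In the fit of all livers the mean of all 5 was lower in Blnc1 LKO than in control livers, and 2.74% of all genes were lower at this unadjusted p. For 4 of the 10 (Stab1, Plvap, Pecam1 and Cdh5) every Blnc1 LKO liver lay below every control liver, which was so for 5.28% of all genes. No marker had an unadjusted p under 0.05 and a higher mean (2.94% of all genes), or all Blnc1 LKO livers above all control livers (5.35% of all genes). The median log2 fold change was −0.10 over the sinusoidal and −0.14 over the vascular markers, and −0.00099 over all genes tested. Single livers moved the sinusoidal median, to −0.021 without control replicate 3 and −0.16 without control replicate 2.

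**Figure D1:**
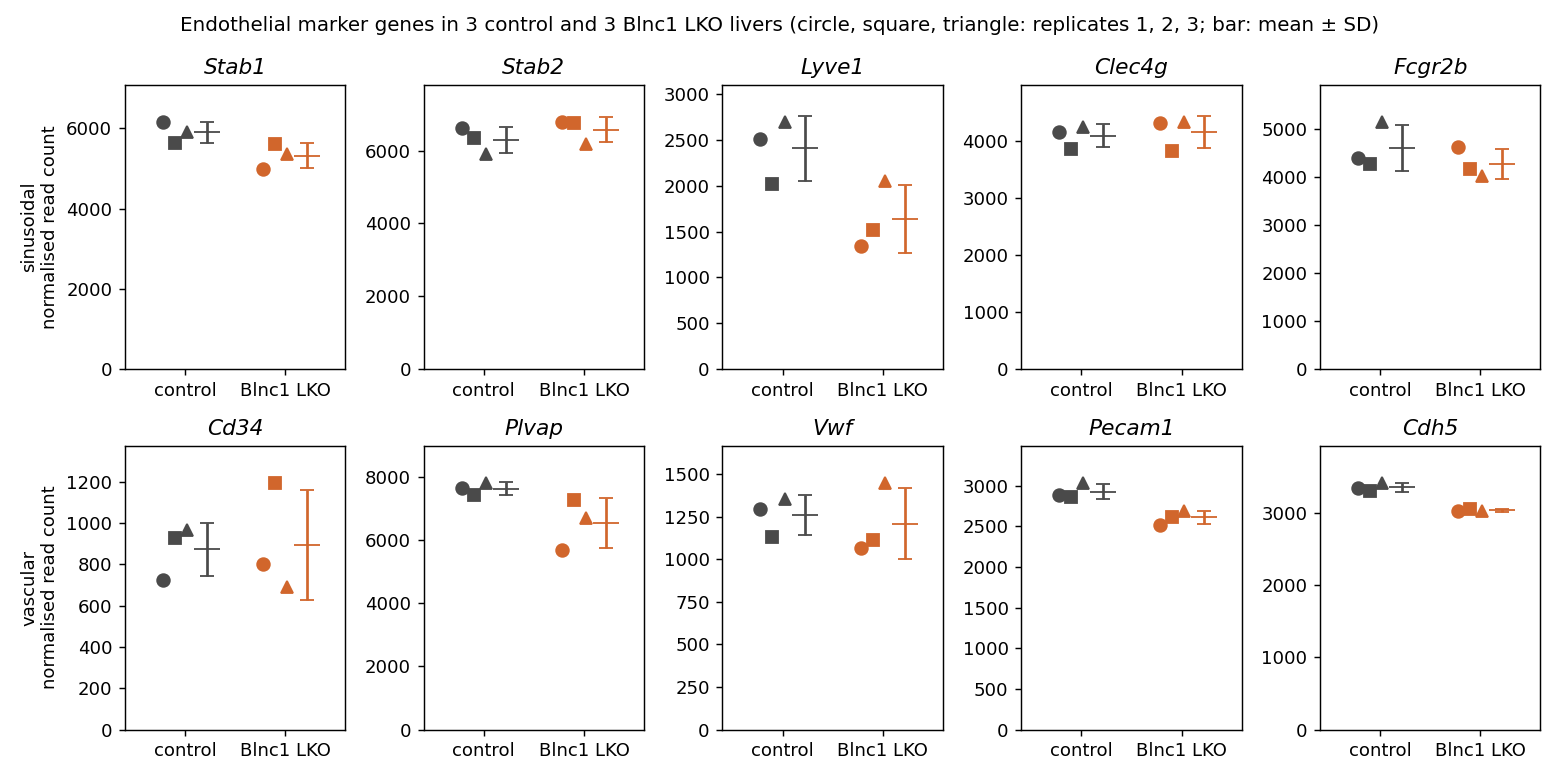
Normalised read counts (vertical axes, from 0) of the 10 endothelial markers in 3 control and 3 Blnc1 LKO livers, with each liver as a point and the mean ± SD beside it. Stab1, Plvap, Pecam1 and Cdh5 are lower in each Blnc1 LKO liver than in each control liver. The groups of Lyve1, which has the lowest mean relative to control (0.679), overlap, as do those of Stab2, Clec4g, Fcgr2b, Cd34 and Vwf.

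Among the sinusoidal markers, Lyve1 had the largest difference. It encodes LYVE-1, a hyaluronan receptor of sinusoidal and lymphatic endothelium that some macrophages also carry. Its normalised read counts were 2506, 2019 and 2697 in the controls against 1340, 1512 and 2050 in Blnc1 LKO livers. Blnc1 LKO replicates 1 and 2 lay below all controls, whereas replicate 3 lay just above control replicate 2, so the groups overlapped. Control livers averaged 2407 ± 350 and Blnc1 LKO livers 1634 ± 371 (SD, n = 3 each). Its log2 fold change was −0.57 (standard error 0.16, 95% interval −0.94 to −0.21, unadjusted p = 0.00651 and adjusted p = 0.695, limma). DESeq2 on the recovered reads gave an adjusted p of 0.0663, the lowest of any marker under any alternative. Leaving out single livers gave log2 fold changes between −0.75 (without Blnc1 LKO replicate 3) and −0.44 (without Blnc1 LKO replicate 1).

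Markers of lymphatic endothelium were read beside Lyve1. Mmrn1, a secreted glycoprotein of lymphatic endothelium and platelets, had 13.8 to 46.9 in the controls against 43.4 to 54.5 in Blnc1 LKO livers. Podoplanin (Pdpn) had 73.7, 138 and 150 in the controls against 96.4, 164 and 102 in Blnc1 LKO livers. Of the 4 lymphatic markers tested, 1 had the lower mean in Blnc1 LKO livers, and their summed value was 9630 to 9884 in control and 9106 to 11004 in Blnc1 LKO livers. The fifth marker of this list, Ccl21a, is not among the listed gene symbols and could not be tested. Prox1 and Reln make up most of this sum and are also expressed by hepatocytes and stellate cells. The part of lymphatic vessels in the Lyve1 values was not tested.

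Stab1 had 6163, 5643 and 5923 in the controls against 4999, 5601 and 5376 in Blnc1 LKO livers. The groups did not overlap, but the lowest control and the highest Blnc1 LKO liver were 0.721% of the control mean apart. The log2 fold change was −0.15 (standard error 0.061, unadjusted p = 0.0378 and adjusted p = 0.857, limma). Stab2 had 6625, 6346 and 5902 in the controls against 6785, 6745 and 6169 in Blnc1 LKO livers. Its groups overlapped, with means of 6291 ± 365 and 6566 ± 345 (SD, n = 3 each) and a log2 fold change of 0.06 (95% interval −0.08 to 0.21, adjusted p = 0.973, limma). For Stab2 it was 0.017 without control replicate 3 and 0.11 without Blnc1 LKO replicate 3.

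Within each liver, log2 Stab1 minus log2 Stab2 does not depend on the scaling between livers. This difference was −0.10, −0.17 and 0.0052 in the controls against −0.44, −0.27 and −0.20 in Blnc1 LKO livers. The Stab1 share relative to Stab2 was thus lower in each Blnc1 LKO liver than in each control liver, with means of −0.30 and −0.09. The pair was set against each other after its values were seen, so the difference is a description without a test. Stab1 is also expressed by macrophages, whereas Stab2 in the liver is a marker of the sinusoid.

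Clec4g encodes LSECtin, a C-type lectin of sinusoidal endothelium. Its values were 4174, 3866 and 4253 in the controls against 4324, 3840 and 4342 in Blnc1 LKO livers. The groups overlapped throughout, and the log2 fold change was 0.02 (95% interval −0.13 to 0.18, adjusted p = 0.993, limma). Fcgr2b encodes FcγRIIb, an inhibitory IgG receptor through which sinusoidal cells take up immune complexes and which B cells and macrophages also express. Its values were 4398, 4275 and 5153 in the controls against 4634, 4179 and 4029 in Blnc1 LKO livers, where control replicate 3 was highest and the rest overlapped. The log2 fold change was −0.10 (95% interval −0.30 to 0.09, adjusted p = 0.971, limma), but −0.021 without control replicate 3 and −0.16 without Blnc1 LKO replicate 1. Of the 50-base stretches of Fcgr2b transcripts in GENCODE M21, 6.95% also occur in transcripts of other genes, most often those of Fcgr3, and for the other 9 markers the share was at most 2.14%.

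Among the vascular markers, Pecam1 and Cdh5 had the smallest spread. Pecam1 encodes CD31, an adhesion molecule between endothelial cells that is also found on platelets and leukocytes. Its values were 2882, 2864 and 3038 in the controls against 2523, 2619 and 2692 in Blnc1 LKO livers. The groups were 5.87% of the control mean apart, and the log2 fold change was −0.17 (standard error 0.055, unadjusted p = 0.0155 and adjusted p = 0.818, limma). Cdh5 encodes VE-cadherin, the cadherin of endothelial junctions. Its values were 3342, 3291 and 3412 in the controls against 3016, 3049 and 3020 in Blnc1 LKO livers. These groups were 7.23% of the control mean apart, with means of 3348 ± 60.6 and 3028 ± 18.0 (SD, n = 3 each). The Blnc1 LKO values of Cdh5 varied by 0.593% (coefficient of variation), less than the 1.80% that counting of its reads alone would give on average, so the closeness of these 3 values is not a measure of their precision. The log2 fold change of Cdh5 was −0.14 (standard error 0.048, unadjusted p = 0.0163 and adjusted p = 0.824, limma). Over the 6 livers, Pecam1 and Cdh5 had the most similar pattern of any pair of the 10 markers, as their centred log2 values differed by 0.026 on average.

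Plvap encodes the protein of the diaphragms that span endothelial pores and caveolae. Its values were 7666, 7417 and 7819 in the controls against 5690, 7260 and 6692 in Blnc1 LKO livers. Blnc1 LKO replicate 2 lay close to the controls and replicate 1 well below them, which gave an SD of 795 in Blnc1 LKO and of 203 in control livers. The log2 fold change was −0.23 (standard error 0.085, unadjusted p = 0.0266 and adjusted p = 0.840, limma), and −0.13 without Blnc1 LKO replicate 1. When livers were scaled by total reads instead of the deposited scaling, the groups of Plvap and of Stab1 overlapped, and 2 of the 10 markers, Pecam1 and Cdh5, remained without overlap.

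Cd34 and Vwf, which mark continuous capillaries and larger vessels, showed neither a common direction nor separation. Cd34, a sialomucin also found on progenitor cells, had 727, 927 and 967 in the controls against 802, 1196 and 689 in Blnc1 LKO livers. Blnc1 LKO livers held both the highest and the lowest value, and the log2 fold change was 0.0069 (95% interval −0.44 to 0.45, adjusted p = 1.00, limma). It was −0.22 without Blnc1 LKO replicate 2, −0.12 without control replicate 1 and 0.18 without Blnc1 LKO replicate 3, so single livers decided its sign. Vwf encodes von Willebrand factor, the adhesive protein of endothelial storage granules and platelets. Its values were 1297, 1129 and 1353 in the controls against 1067, 1112 and 1450 in Blnc1 LKO livers, with the highest value in Blnc1 LKO replicate 3. Its log2 fold change was −0.07 (95% interval −0.35 to 0.21, adjusted p = 0.985, limma), and without Blnc1 LKO replicate 1 it was 0.016.

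Platelet markers varied between single livers. Of 6 platelet and megakaryocyte markers, 5 had a higher and 1 a lower mean log2 value in Blnc1 LKO livers (median log2 fold change 0.90). Ppbp alone was higher at an unadjusted p under 0.05 in limma (2.94% of all genes), and none separated the groups. The median rests on Gp9, Gp1bb and Treml1, which had low values, from 4.26 to 31.7 in single livers. Itga2b and Pf4, with higher values, had log2 fold changes of 0.041 and −0.24. The median is therefore not a measure of platelet RNA. The summed value of the 6 markers was 708 to 773 in control and 608 to 1079 in Blnc1 LKO livers. Ppbp, a platelet chemokine, had 104, 55.4 and 59.6 in the controls against 94.0, 137 and 408 in Blnc1 LKO livers. Pf4, platelet factor 4, had 331, 347 and 344 in the controls against 258, 377 and 246 in Blnc1 LKO livers. Blnc1 LKO replicate 3, the highest in Vwf, was thus the highest in Ppbp and the lowest in Pf4. The part of platelets in the Vwf and Pecam1 values was not tested.

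The mean of the sinusoidal markers was also set against that of the vascular markers. Among the latter, Pecam1 and Cdh5 belong to junctions of endothelial cells in general. Their centred log2 values differed from those of Stab1 by only 0.051 and 0.048 on average. The difference between these means therefore cannot tell whether sinusoidal and vascular RNA moved apart. The mean log2 value of the sinusoidal markers lay 0.034, −0.096 and 0.062 from the control mean in the controls against −0.17, −0.17 and −0.098 from it in Blnc1 LKO livers. For the vascular markers these distances were −0.045, −0.031 and 0.076 in control and −0.23, −0.016 and −0.12 in Blnc1 LKO livers, with overlap. Both means were thus lower in Blnc1 LKO livers, with differences of −0.15 and −0.12. The sinusoidal minus the vascular mean was 0.95, 0.81 and 0.86 in the controls against 0.92, 0.71 and 0.89 in Blnc1 LKO livers, and the groups overlapped with a difference of −0.028. Lyve1 carried most of the difference in the sinusoidal mean between groups. Without Lyve1, a choice made after the values were seen, the sinusoidal mean of Blnc1 LKO livers lay −0.042 from that of the controls with overlap, and the sinusoidal minus the vascular mean differed by 0.077, again with overlap.

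Other endothelial genes were read from 4 further lists of 65 genes in all, and none of the 65 passed an adjusted p of 0.05 in limma or in edgeR. At an unadjusted p under 0.05, 11 were lower and 2 higher in Blnc1 LKO livers in limma (2.74% and 2.94% of all genes), and DESeq2 called 2 of the 65, Cd93 and Cav1 (84 of all 17297 genes). Every Blnc1 LKO liver lay below every control liver for 13 of them and above for 2 (5.28% and 5.35% of all genes). All 23 genes taken here as pan-endothelial, or markers of endothelium in general, had a lower mean log2 value in Blnc1 LKO livers, where 50.4% of all genes did. Whether other liver cells also express them was not tested. Once their own mean was set to no difference, 9 of the 23 had a lower mean log2 value. With the deposited scaling their median log2 fold change was −0.10, with a range from −0.35 to −0.0065. Without Blnc1 LKO replicate 2, 20 of the 23 had a lower mean log2 value. Of these 23, 6 were lower at an unadjusted p under 0.05 (2.74% of all genes) and 8 were lower without overlap (5.28% of all genes).

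Cd93, a transmembrane lectin of endothelial adhesion, had 2368, 2477 and 2636 in the controls against 1823, 2149 and 1949 in Blnc1 LKO livers. Its log2 fold change was −0.34 (standard error 0.075), with an adjusted p of 0.548 in limma and 0.0429 in DESeq2. Clec14a, another endothelial lectin, differed by −0.21 in log2 (limma standard error 0.061 and adjusted p = 0.714). The transcription factors Erg and Sox18, which maintain endothelial identity and vessel growth, had −0.24 and −0.35 (adjusted p = 0.824 each, limma), and Sox18 had −0.21 without Blnc1 LKO replicate 1. In all 4 of these genes the Blnc1 LKO livers lay below the controls. The VEGF receptor genes Kdr and Flt1 had log2 fold changes of −0.026 and −0.0065 with overlap. The angiopoietin receptor gene Tek had −0.058 with overlap, and Tie1 of the same family had −0.13 with all Blnc1 LKO livers below the controls (adjusted p = 0.873, limma). These 4 receptors were named after their values were seen.

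Of 12 other sinusoidal genes, 8 had a lower and 4 a higher mean log2 value in Blnc1 LKO livers, with a median of −0.054. Flt4, which encodes VEGF receptor 3, had 5292, 4635 and 4876 in the controls against 3473, 4434 and 4277 in Blnc1 LKO livers, all below the controls (log2 fold change −0.29, standard error 0.096, adjusted p = 0.824, limma). Ehd3, an endocytic membrane protein, had 4734, 4191 and 4656 in the controls against 5293, 5013 and 5195 in Blnc1 LKO livers, all above the controls (log2 fold change 0.19, standard error 0.061, adjusted p = 0.787, limma). Gpr182, a scavenging chemokine receptor, and Oit3 had −0.17 and −0.10, with overlap. Without Blnc1 LKO replicate 1, Flt4 had −0.18 and Gpr182 −0.10, and without control replicate 3, Oit3 had −0.047. Of 7 angiocrine genes, which encode signals from endothelium to hepatocytes and other cells, none separated the groups, and their median was 0.070. The Wnt ligands Wnt2 and Wnt9b had log2 fold changes of 0.14 and 0.17, the BMP ligand Bmp2 had 0.073 and Angpt2 had −0.18 (adjusted p from 0.968 to 0.973, limma). Single livers moved these values, from 0.057 to 0.26 for Wnt2, 0.060 to 0.28 for Wnt9b, 0.027 to 0.14 for Bmp2 and −0.29 to −0.11 for Angpt2. The lower ends were reached without Blnc1 LKO replicate 1, control replicate 1, control replicate 1 and Blnc1 LKO replicate 3, and the upper ends without Blnc1 LKO replicate 2, Blnc1 LKO replicate 1, control replicate 3 and Blnc1 LKO replicate 2, in that order of genes.

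The list of 23 capillary and large-vessel genes held the widest differences. Of its genes, 20 had a lower and 3 a higher mean log2 value in Blnc1 LKO livers, where 50.4% of all genes were lower. The median was −0.17. Cav1, which encodes the caveolar coat protein caveolin-1 and is expressed by many cell types, had 518, 689 and 731 in the controls against 1228, 1035 and 879 in Blnc1 LKO livers. Its log2 fold change was 0.70 (standard error 0.16, adjusted p = 0.548 in limma and 0.00519 in DESeq2). Esm1, a proteoglycan secreted by sprouting endothelium, had 770, 946 and 731 in the controls against 476, 558 and 662 in Blnc1 LKO livers, which differed by −0.53 in log2 (limma standard error 0.14 and adjusted p = 0.619). Efnb2, the arterial marker ephrin-B2, and Emcn, the venous and capillary sialomucin endomucin, had log2 fold changes of −0.39 and −0.23 (adjusted p = 0.739 and 0.855, limma), each without overlap, and Emcn had −0.15 without control replicate 3. Most genes of this list were thus lower in mean, with Esm1, Efnb2 and Emcn below the control livers and Cav1 above them. Gja4 and Edn1, also higher in mean, had log2 fold changes of 0.017 and 0.038 with overlap.

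**Figure D2:**
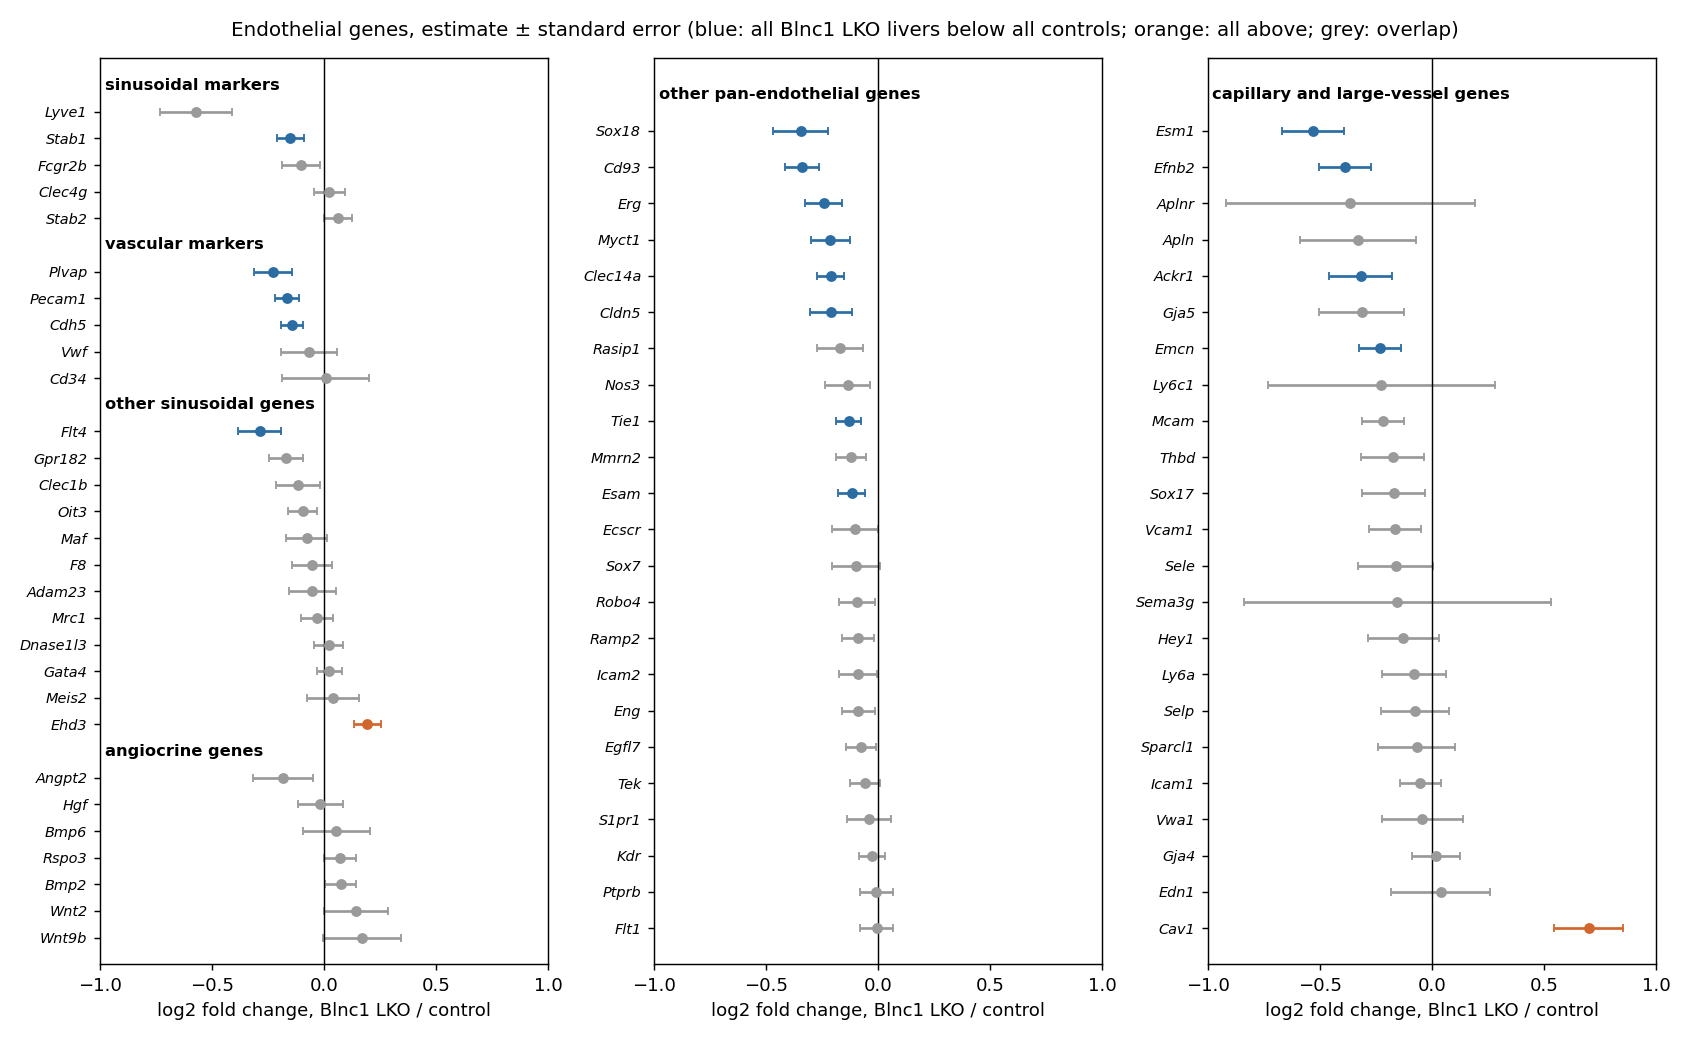
Log2 fold change of Blnc1 LKO against control (horizontal axes) for the 10 markers and 65 other endothelial genes, with standard errors from limma and 3 livers per group. All 23 pan-endothelial genes lie below 0 with the deposited scaling (9 of 23 relative to their own mean), the largest positive value is that of Cav1 (0.70), and limma called none of these genes after adjustment.

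Since the pan-endothelial genes were lower, each marker was also read relative to their mean log2 value in the same liver. That scaling moved the median of all genes by 0.13. The log2 fold changes of Stab1, Pecam1 and Cdh5 became −0.020, −0.034 and −0.013, and none of the 10 markers was then without overlap in the direction of lower values. Lyve1 remained at −0.44 and Plvap at −0.10 (adjusted p = 0.291 and 0.497, limma). Clec4g and Stab2 became 0.15 and 0.19 (adjusted p = 0.327 and 0.295, limma). Relative to the pan-endothelial genes, Lyve1 was thus the marker farthest below 0 and Stab2 the one farthest above it, and Fcgr2b and Vwf changed sign, to 0.027 and 0.064. The pan-endothelial mean was itself 0.13 lower in Blnc1 LKO livers, with no overlap between groups.

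**Figure D3:**
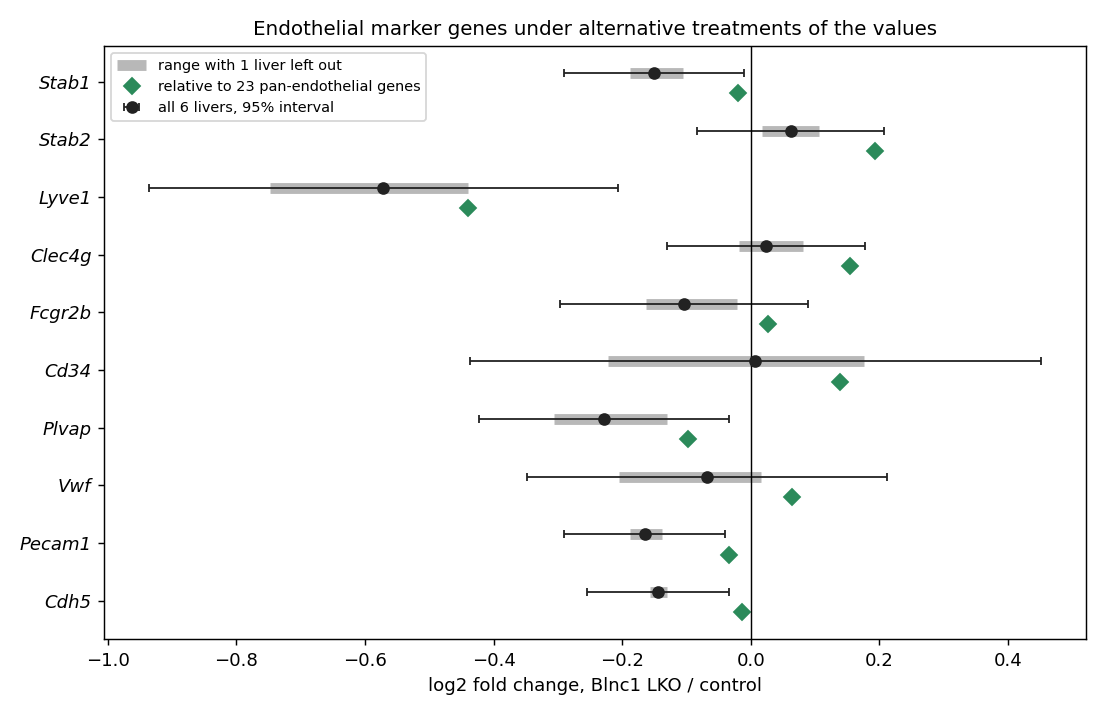
Log2 fold change of each of the 10 markers (horizontal axis), from all 6 livers with its 95% interval, as the range with 1 liver left out in turn, and relative to 23 pan-endothelial genes. Relative to the pan-endothelial genes, Pecam1 and Cdh5 lie near 0 and Lyve1 stays at −0.44.

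Several markers are shared with macrophages, whose own markers were therefore also read. All 6 Kupffer cell markers had a higher mean log2 value in Blnc1 LKO livers (median log2 fold change 0.75), 5 of them at an unadjusted p under 0.05 (2.94% of all genes) and none past the adjustment in limma. Marco and Adgre1 lay above all controls in every Blnc1 LKO liver, as did 5.35% of all genes, and the other 4 overlapped. The summed value of the 6 was 38675 to 44937 in control and 43088 to 52174 in Blnc1 LKO livers. Marco was low in the controls (32.6, 87.4 and 23.4) and uneven in Blnc1 LKO livers (794, 95.8 and 509). Cd5l had a log2 fold change of only 0.023. Of 6 recruited macrophage markers, 5 had a lower mean log2 value (median −0.16). Gpnmb and Ccr2 (log2 fold changes −0.54 and −0.33) were lower at an unadjusted p under 0.05 in limma (2.74% of all genes), and none passed the adjustment. Ccr2 alone lay below all controls in every Blnc1 LKO liver (5.28% of all genes). The sums, mostly Lyz2, were 45326 to 47137 in control and 40843 to 50622 in Blnc1 LKO livers. The 6 B cell markers had sums of 919 to 1182 in control and 1062 to 1176 in Blnc1 LKO livers. The 6 hepatocyte markers, Alb among them, overlapped between groups with a median log2 fold change of 0.0082. No marker of these lists was at 0 in any liver. The part of macrophages and B cells in the Stab1, Lyve1 and Fcgr2b values was not tested.

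**Figure D4:**
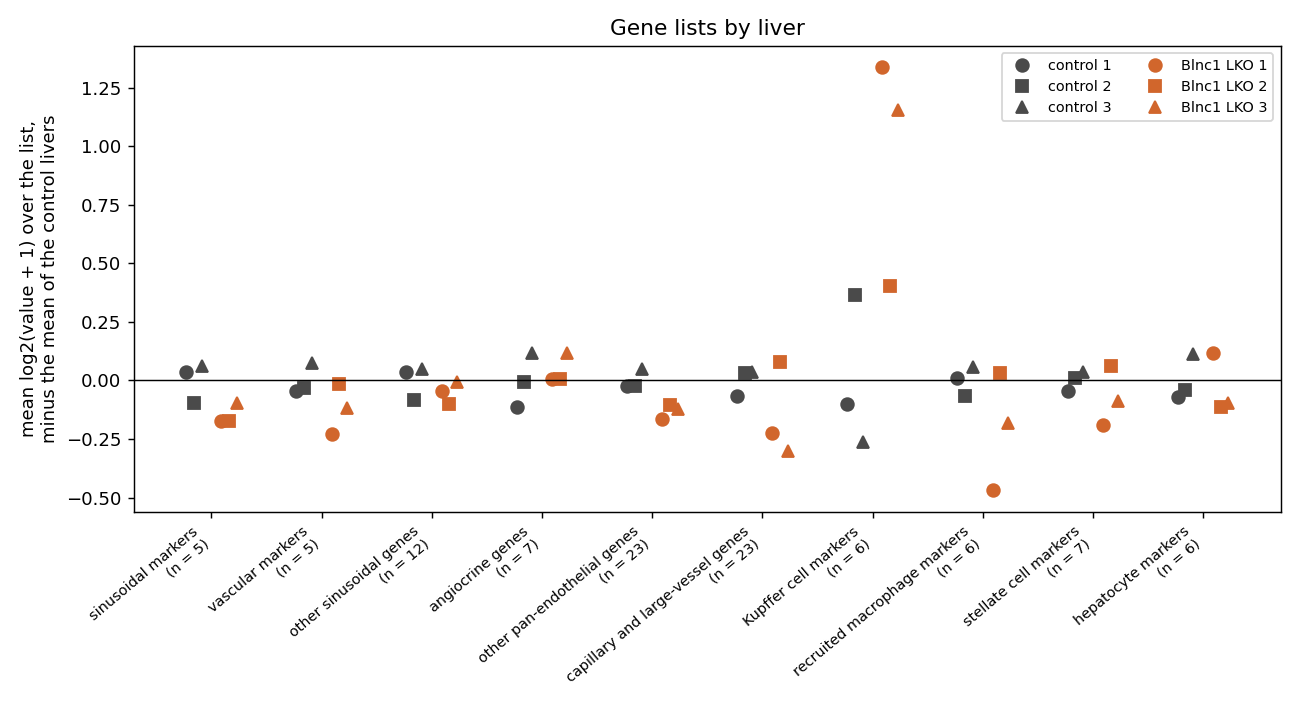
Mean log2(value + 1) over each gene list, minus the mean of the control livers (vertical axis), for the 6 livers, with n the number of genes. The pan-endothelial genes of the 3 Blnc1 LKO livers lie below all controls. The sinusoidal markers do so only just, at −0.098 in Blnc1 LKO replicate 3 against −0.096 in control replicate 2, and overlap without Lyve1. The vascular markers overlap, and the Kupffer cell markers lie highest in Blnc1 LKO replicates 1 and 3.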

How the data were processed

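PolyA-selected liver RNA of 3 control and 3 Blnc1 LKO mice was sequenced from TruSeq libraries, which do not keep the strand. The authors used STAR on mm10, HTSeq for counts over genes and DESeq2, with versions and annotation not given in the sources used here. Their deposited signal is a gene's reads over the size factor of each liver. Its WT and KO columns were matched to control and LKO livers of the same number. Dividing by the smallest value above 0 of a column recovered whole reads for 100% of values (tolerance 0.01 reads).

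limma (version 3.58.1, R 4.3.3) was fitted to log2(value + 1) over all 17297 genes that reached a value of 1 in 3 or more livers, without covariates, with an intensity trend and Benjamini-Hochberg adjustment over all genes. Fold changes are on this scale, and those of low genes are understated. The named genes are the 10 markers, and in each of the other endothelial lists the 4 genes of smallest unadjusted p with a mean of at least 50. The genes nearest in pattern were the 5 with the smallest mean absolute difference in centred log2 values, some of which are not reported here. Markers and lists were chosen with earlier results of these data known. An exact permutation test of 3 against 3 livers cannot go below 0.1 and was not used. Alternatives were edgeR (4.0.16), DESeq2 (1.42.0) and voom on recovered reads, other scalings, filters and pseudocounts, a replicate block, and each liver left out in turn. A sinusoidal mean without Lyve1 was added after seeing the data.

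Gene positions and exons came from GENCODE M21 and promoters from RefSeq (both GRCm38). These sources place the starts of Stab2, Fcgr2b and Cd34 differently, and the promoter windows follow RefSeq. Exons of Stab1 overlap those of Nt5dc2, and exons of Stab2, Clec4g, Fcgr2b and Cd34 overlap antisense genes, over 1.09% to 5.93% of their length. Reads of these overlaps cannot be told apart without strand.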

Additional observations from a re-analysis of the deposited data

How the results depend on the processing

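None of the 10 markers passed an adjusted p of 0.05 under any of the 16 alternatives. The number of genes called over the whole table, 1 in limma, was 2 without a filter on low values, 2 in edgeR, 84 in DESeq2 (45 higher and 39 lower) and 4 relative to the pan-endothelial genes (3 higher and 1 lower), and with single livers left out it ranged from 0 (without control replicate 1) to 13 (without Blnc1 LKO replicate 2). With the replicate number as a block it was 0, with 4 markers at an unadjusted p under 0.05. Livers of the same number did not deviate together (correlations of −0.058, −0.019 and −0.11 over genes), and no liver correlated best with the one of its own number. Whether livers of the same number shared housing or processing cannot be told from such deviations from means of 3 livers. The block changed no other call. Scaled by total reads, 2 markers in place of 4 were lower in every Blnc1 LKO liver. Relative to the pan-endothelial genes 0 were, 9 of the 23 pan-endothelial genes had a lower estimate, the medians were 0.027 for the sinusoidal and −0.013 for the vascular markers, and Fcgr2b (0.027), Vwf (0.064) and Oit3 (0.036) changed sign, as this scaling sets the mean of those genes to no difference. With 1 liver left out, the sign changed for Clec4g (−0.018 to 0.082), Cd34 (−0.22 to 0.18) and Vwf (−0.20 to 0.016). The cause of the other changes was not tested. With 3 livers per group the spread between livers is itself poorly known, and counting error of the markers' reads was 1.16% to 3.43% on average.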

Other observations

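Genes with a pattern over the 6 livers like that of the markers were sought among 13321 genes, by the mean absolute difference of centred log2 values. Among those nearest to the mean of the sinusoidal markers were Snx5, a sorting nexin of endosomes, Adssl1 and Ttc17, at differences from 0.021 to 0.026. Snx5 had 8920, 8342 and 9142 in the controls against 7876, 8262 and 8339 in Blnc1 LKO livers, with Blnc1 LKO replicate 3 level with control replicate 2 (log2 fold change −0.11, adjusted p = 0.904, limma). Nearest to the mean of the vascular markers were Mbd4, Tmem206, Ext2, Rhoj and Cdc25a, at differences from 0.015 to 0.020. With 1 liver left out, between 0 and 2 of the 5 genes nearest to the sinusoidal markers were still among the 5 nearest, so these neighbours are a description of these 6 livers.

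Stellate cells, which wrap the sinusoids as pericytes, had summed values of 7 markers of 55880 to 58484 in control and 52233 to 59912 in Blnc1 LKO livers, with 6 of the 7 lower in mean. Rgs5, a pericyte regulator of G-protein signalling, had 2061, 2179 and 2332 in the controls against 1790, 1790 and 1793 in Blnc1 LKO livers, below all controls (log2 fold change −0.29, standard error 0.062, adjusted p = 0.548 in limma and 0.0492 in DESeq2). The closeness of these 3 Blnc1 LKO values (SD 1.82) is not a measure of their precision. Lrat alone of the 7 had a higher mean, with overlap (log2 fold change 0.16, adjusted p = 0.937, limma). Of 5 cholangiocyte markers none separated the groups, with sums of 2713 to 4255 in control and 2907 to 4024 in Blnc1 LKO livers.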
